A study of Mus musculus with 7 samples.

Results

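The genes described here encode proteins that hold the endoplasmic reticulum close to other membranes or that carry lipids across the gap. They are the VAP anchors Vapa, Vapb and Mospd2, the phosphatidylinositol transfer proteins Pitpna, Pitpnb, Pitpnc1 and Pitpnm1, and the extended synaptotagmins Esyt1 and Esyt2. They were chosen by gene symbol, and all 9 were found among the 25033 genes listed in each file. The data are mRNA sequencing read counts of T-cells from C57BL/6J mice, with 1 library per mouse, from 4 ORP4L knock-in (ORP4L KI) animals and 3 wild-type littermates (WT), all aged 15 months. The knock-in allele sits at the Rosa26 locus and places human ORP4L behind a CAG promoter and a stop cassette flanked by loxP sites, and Cre under the Lck promoter removes the cassette in T-cells. The study describes the ORP4L KI mice of this experiment as moribund, and it reports that ORP4L KI mice develop T-cell leukemia. The presence of ORP4L and the disease therefore cannot be told apart in this comparison. Whether the WT littermates carried Lck-Cre or the unrecombined allele is not given in the sources used here.

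Proteins at membrane contact sites move lipids without vesicles. VAP proteins are anchored in the endoplasmic reticulum and use a cytosolic MSP domain to hold partners that carry an FFAT motif, among them oxysterol-binding protein (OSBP) and several of its relatives. The phosphatidylinositol transfer proteins supply phosphatidylinositol to membranes where kinases turn it into phosphoinositides, and the extended synaptotagmins tether the endoplasmic reticulum to the plasma membrane. ORP4L, whose mouse gene is Osbp2, belongs to the OSBP family. The comparison asks whether the RNA of the anchors and neighbouring lipid carriers differed between T-cells of moribund ORP4L KI mice and of WT littermates.

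Because Vapa and Vapb, and likewise Pitpna and Pitpnb, encode closely related proteins, reads of these pairs could in principle be exchanged between the genes. Their coding sequences were therefore compared, using the GENCODE transcript (mouse, GRCm38) matched to the RefSeq entry in the files. The coding sequences were 69.7% identical for Vapa and Vapb, 72.6% for Pitpna and Pitpnb, and 64.7% for Esyt1 and Esyt2, over the aligned bases. No word of 31 bases was shared by the full transcripts of any of the 3 pairs, and the longest identical run was 18, 23 and 16 bases. Only reads under 17 nt were dropped, so a short read could lie within the runs of 18 and 23 bases. How the mapper placed reads with mismatches was not tested, so the comparison does not exclude an exchange of reads. The most similar 60 bases of each of the first 2 pairs are shown, since these are the stretches where an exchange of reads would be easiest. Capitals mark the bases that differ between the members of a pair. The Vapa and Vapb stretches, which start at coding bases 139 and 118, lie in the part that encodes the MSP domain and differ at 4 bases. The Pitpna and Pitpnb stretches, which start at coding bases 256 and 253, differ at 7 bases.
Vapa: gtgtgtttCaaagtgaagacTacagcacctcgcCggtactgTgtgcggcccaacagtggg
Vapb: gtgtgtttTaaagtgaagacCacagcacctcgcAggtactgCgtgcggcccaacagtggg
Pitpna: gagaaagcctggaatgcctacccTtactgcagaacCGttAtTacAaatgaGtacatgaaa
Pitpnb: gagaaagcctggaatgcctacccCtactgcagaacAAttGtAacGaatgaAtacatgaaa

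The libraries held between 12918187 and 15912921 counts in WT and between 16757959 and 19665679 counts in ORP4L KI. Osbp2 had 0, 0 and 1 counts in WT replicates 1 to 3 and 188, 742, 155 and 443 counts in ORP4L KI replicates 1 to 4, and reads of the introduced human sequence cannot be told apart from those of the mouse gene. All 10 T-cell markers examined, led by Lck and Cd28, had reads in every library, and together they took 0.184% to 0.307% of the counts in WT and 0.106% to 0.407% in ORP4L KI. All 14 granulocyte markers, led by S100a9 and Ngp, also had reads in every library. They took 0.186% to 0.53% of the counts in WT, and 12.2%, 1.12%, 3.06% and 4.91% in ORP4L KI replicates 1, 2, 3 and 4. Other marker shares also did not overlap between the groups. Erythroid markers took 1.08% to 1.85% in WT and 0.117% to 0.851% in ORP4L KI. Dendritic cell and NK cell shares were lower in ORP4L KI, and dividing cell shares were higher. The study's methods name a kit for naive CD4+ T-cells followed by culture, a selection meant to remove granulocytes, and whether each library went through both steps is not given in the sources used here. In bulk libraries fewer cells of a type and less RNA per cell cannot be told apart.

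None of the 9 genes was called between ORP4L KI and WT T-cells. With edgeR's quasi-likelihood test over 13462 genes, in which all 9 passed the filter on low counts, 0 had an adjusted p under 0.05, against 0.0223% of all genes tested. At an unadjusted p under 0.05 the number was also 0, against 13.7% of all genes. DESeq2's Wald test and edgeR's likelihood ratio test called 0 of the 9 at an adjusted p under 0.05. Over the 13462 genes they called 784 and 706, a share at which 0 of 9 is not unusual. Likewise 0 of the 9 combined an unadjusted p under 0.01 with a log2 fold change above 1 in size, against 4.68% of all genes. Log2 fold changes ran from -0.12 for Pitpnm1 to 0.35 for Vapa, with 5 above and 4 below 0. The median size of the log2 fold change was 0.10 for the 9 genes and 0.26 for all genes tested, and 0 of the 9 exceeded 0.5 in size, against 26.5% of all genes. All genes tested include genes near the filter and were not matched to the 9 for read counts. Standard errors were 0.18 to 0.35 among the 9, with a median of 0.29 over all genes. The 95% intervals reached from -0.79 at the lowest to 0.79 at the highest, so for each gene a change to under 0.577 times or over 1.73 times the WT level lay outside its interval. The smallest member count in any library was 222, for Mospd2, so none of these values rested on a handful of reads.

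**Figure D1:**
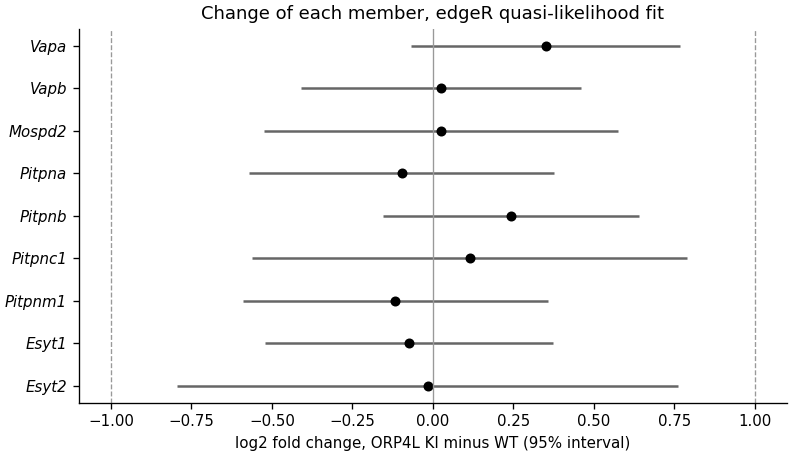
Log2 fold change of each gene, ORP4L KI minus WT, from the edgeR quasi-likelihood fit (points), with its 95% interval (lines) and dashed lines at a log2 fold change of 1 in size. All 9 intervals include 0 and none reaches a dashed line, and Vapa has the highest value at 0.35.

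Vapa had the largest log2 fold change of the 9 in the TMM-scaled fit, but not with plain library totals, where it was 0.20 against -0.25 for Pitpna, nor without WT replicate 3, where it was 0.30 against 0.45 for Pitpnc1. Vapa encodes VAP-A, the anchor that OSBP uses at contacts between the endoplasmic reticulum and the Golgi. In ORP4L KI T-cells, the study reports, VAPA knockdown left OSBP redistribution to the plasma membrane unchanged. Recovery of phosphatidylinositol 4-phosphate there was also unchanged, and the study calls both likely independent of VAPA-mediated contacts. The Vapa gene (NM_013933) lies on chromosome 17, from 65580053 to 65616462 of GRCm38. Its level, as CPM (read counts relative to the library total, scaled by the trimmed mean of M values, TMM), was 95.3, 111.1 and 91.7 in WT replicates 1 to 3 and 152.1, 117.7, 121.2 and 116.0 in ORP4L KI replicates 1 to 4. The groups did not overlap, all ORP4L KI values being the higher ones, and ORP4L KI replicate 1 was the highest. The means were 99.4 ± 10.3 CPM (SD, n = 3) and 126.7 ± 17.1 CPM (SD, n = 4). The log2 fold change was 0.35 (standard error 0.19, 95% interval -0.067 to 0.77), with an adjusted p of 0.465 by edgeR. The exact permutation p, two-sided, was 0.0286, which is the smallest that 4 libraries against 3 allow and is not adjusted for the number of genes. Groups that do not overlap were found for 1 of the 9 genes and for 13.8% of all genes tested (6.43% higher in ORP4L KI), so the share among the 9 was near the background. The order depended on the scaling. In CPM of the plain library total the groups of Vapa overlapped, and so also in the deposited RPKM. For a single gene these are nearly 1 scaling, since the listed counts were 99.8% to 99.9% of the totals behind the RPKM. The order under the other scalings fitted was not examined. ORP4L KI replicate 1, which had the most Vapa in TMM-scaled CPM, also had the largest share of granulocyte markers, at 12.2%. By plain library totals and in RPKM, ORP4L KI replicate 2 had the most, with 72.9 RPKM against 72.2 in replicate 1. Without replicate 1 the log2 fold change was 0.25, and the remaining ORP4L KI libraries still lay above the WT libraries. The part of granulocyte RNA, or of the other marker shares that differed between the groups, in the difference was not tested.

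**Figure D2:**
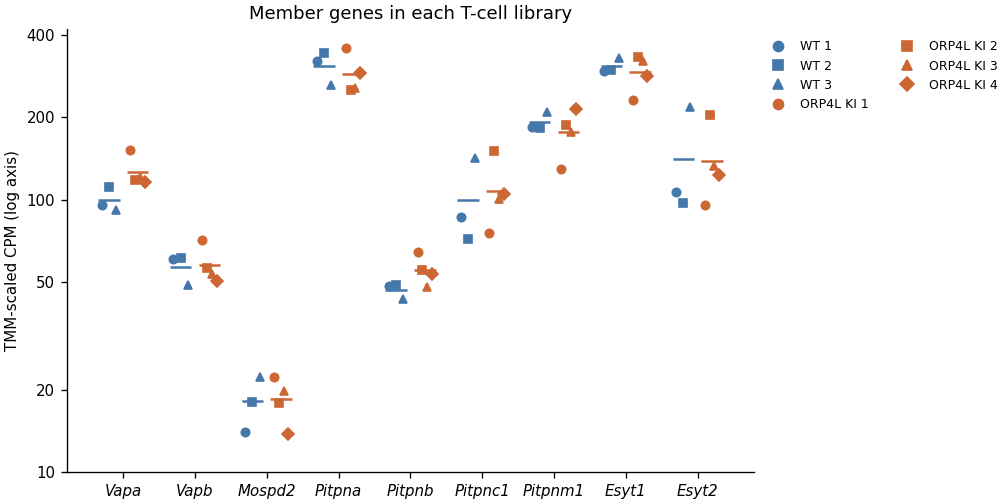
TMM-scaled CPM of each gene on a log axis in the 3 WT libraries (blue) and the 4 ORP4L KI libraries (orange), with a symbol for each replicate number and a horizontal bar at each group mean. The groups are separate for Vapa, where WT ends at 111.1 and ORP4L KI begins at 116.0 CPM, and overlap for the other 8 genes.

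Vapb and Mospd2 differed by less than the spread between mice. Vapb encodes VAP-B, the close relative of VAP-A, and lies on chromosome 2 (173737571 to 173784336). It had 60.4, 60.9 and 48.7 CPM in WT and 70.9, 56.3, 53.1 and 50.3 CPM in ORP4L KI. Only ORP4L KI replicate 1 lay above the WT libraries, and the log2 fold change was 0.025 (standard error 0.19, 95% interval -0.41 to 0.46, adjusted p = 0.975 by edgeR). Mospd2 encodes another endoplasmic reticulum protein that binds FFAT motifs through an MSP domain, and it lies on chromosome X (164936169 to 164980505). It had 14.1, 18.2 and 22.4 CPM in WT and 22.4, 18.0, 19.9 and 13.8 CPM in ORP4L KI. The values of the groups covered nearly the same range, and the fitted difference was 0.025 on the log2 scale (standard error 0.24, 95% interval -0.52 to 0.57, adjusted p = 0.98 by edgeR). Since Mospd2 is X-linked, Xist, which is transcribed from the inactive X chromosome, was read beside it. Xist was at 372.7, 391.5 and 650.6 CPM in WT replicate 1 and ORP4L KI replicates 1 and 2, and at 15.7 to 22.3 CPM in the other 4 libraries. Ddx3y, a Y-linked gene, was at 0.559 to 3.35 CPM in the first 3 and at 120.8 to 208.0 CPM in the other 4. Mospd2 had 14.1, 22.4 and 18.0 CPM in the libraries with high Xist, a range that lies within that of the remaining libraries.

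The transfer proteins Pitpna and Pitpnb, small soluble carriers of phosphatidylinositol and phosphatidylcholine, had log2 fold changes of opposite sign, neither past the test. Pitpna, on chromosome 11 (75588079 to 75628804), had 321.2, 345.1 and 262.1 CPM in WT and 358.6, 251.4, 255.7 and 291.6 CPM in ORP4L KI. ORP4L KI replicate 1 was the highest of the 7 libraries while replicates 2 and 3 were below WT, and the log2 fold change was -0.097 (95% interval -0.57 to 0.38, standard error 0.21, with an adjusted p of 0.904 by edgeR). Pitpnb, on chromosome 5 (111330697 to 111388359), had 48.2, 48.5 and 43.2 CPM in WT and 64.3, 55.3, 47.9 and 53.4 CPM in ORP4L KI. Here 3 of 4 ORP4L KI libraries were above every WT library and replicate 3 fell inside the WT range. The log2 fold change of Pitpnb was 0.24 (standard error 0.18, 95% interval -0.15 to 0.64, adjusted p = 0.631 by edgeR, exact permutation p = 0.114, two-sided).

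Pitpnc1 and Pitpnm1 were also not called. Pitpnc1 encodes a soluble transfer protein that binds phosphatidylinositol and phosphatidic acid, and lies on chromosome 11 (107207892 to 107470720). Its level was 86.1, 71.6 and 141.6 CPM in WT and 75.5, 151.0, 100.3 and 104.9 CPM in ORP4L KI, so that WT replicate 3 and ORP4L KI replicate 2 stood above the other 5 libraries. The log2 fold change was 0.11 (standard error 0.30, 95% interval -0.56 to 0.79, adjusted p = 0.923 by edgeR). Pitpnm1 encodes Nir2, a larger transfer protein that is held by VAP proteins and works at contacts between the endoplasmic reticulum and the plasma membrane. The gene lies on chromosome 19 (4099998 to 4113966). Pitpnm1 had 184.5, 182.7 and 209.2 CPM in WT and 130.0, 187.6, 176.3 and 214.5 CPM in ORP4L KI. ORP4L KI replicate 1 was the lowest of the 7 libraries and replicate 4 the highest, and the log2 fold change was -0.12 (95% interval -0.59 to 0.36, standard error 0.21, with an adjusted p of 0.879 by edgeR). Without ORP4L KI replicate 1 it was 0.00083.

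The tethers Esyt1 and Esyt2 had nearly equal group means. Esyt1 encodes the extended synaptotagmin whose membrane binding responds to calcium, and lies on chromosome 10 (128510248 to 128525859). It had 296.8, 298.2 and 330.6 CPM in WT and 231.9, 333.5, 321.9 and 284.8 CPM in ORP4L KI. ORP4L KI replicate 1 was again the lowest library, and the log2 fold change was -0.074 (standard error 0.20, 95% interval -0.52 to 0.37, adjusted p = 0.923 by edgeR). Esyt2 encodes the family member that binds the plasma membrane at resting calcium, and lies on chromosome 12 (116279283 to 116390935). It had 106.7, 97.0 and 217.9 CPM in WT and 95.2, 204.9, 132.3 and 123.2 CPM in ORP4L KI. The means of 140.5 ± 67.1 CPM (SD, n = 3) and 138.9 ± 46.7 CPM (SD, n = 4) differed by far less than either SD (log2 fold change -0.017 with a standard error of 0.35 and an adjusted p of 0.991 by edgeR).

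Esyt2 and Pitpnc1 varied most among the mice. The highest library had 2.29 times the CPM of the lowest for Esyt2 and 2.11 times for Pitpnc1, against 1.43 to 1.66 times for the other 7 genes. For both genes the 2 highest libraries were WT replicate 3 and ORP4L KI replicate 2, and the 2 lowest were WT replicate 2 and ORP4L KI replicate 1. The summed share of the 10 T-cell markers had the same extremes. It was 0.307% and 0.407% in the first 2 libraries, 0.184% and 0.106% in the last 2, and 0.237% to 0.266% in the other 3. The part of T-cell RNA in the levels of Esyt2 and Pitpnc1 was not tested. Because 1 library of each group was high and 1 low, the spread lay within the groups, and the standard errors of these 2 genes were the largest of the 9. Leaving out WT replicate 3 moved the log2 fold change to 0.45 for Esyt2 and to 0.45 for Pitpnc1, and leaving out ORP4L KI replicate 2 moved it to -0.29 and -0.11.

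**Figure D3:**
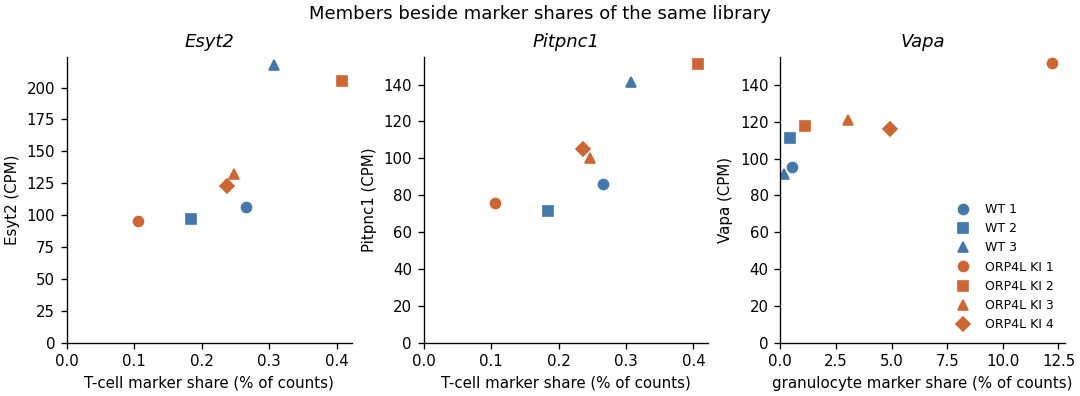
CPM of Esyt2 and of Pitpnc1 against the share of counts taken by 10 T-cell markers, and CPM of Vapa against the share taken by 14 granulocyte markers, with 1 point per library (WT blue, ORP4L KI orange, symbols by replicate number). WT replicate 3 and ORP4L KI replicate 2 are high on both axes of the first 2 panels, and ORP4L KI replicate 1, at 12.2% granulocyte markers, has the highest Vapa value of 152.1 CPM on this TMM scale.

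Levels were compared between genes only per length, in the deposited RPKM (read counts scaled by the length of the longest transcript and by library size). By the median over the 7 libraries, Esyt1 was first with 87.0 RPKM (52.5 to 98.8), followed by Pitpna with 76.3 (67.3 to 91.9) and Vapa with 63.1 (57.5 to 72.9). Pitpnm1 had 43.7 RPKM, Esyt2 20.8, Pitpnb 17.9, Pitpnc1 15.2, Vapb 8.48 and Mospd2 6.91. Vapa exceeded Pitpnm1, Pitpnm1 exceeded Esyt2, and Pitpnc1 exceeded Vapb in 7 of 7 libraries. The other neighbours exchanged places in some libraries, with Esyt1 above Pitpna in 4 of 7, Pitpna above Vapa, Esyt2 above Pitpnb and Pitpnb above Pitpnc1 in 5 of 7, and Vapb above Mospd2 in 6 of 7. Vapa made up 77.4% to 84.3% of the summed RPKM of Vapa, Vapb and Mospd2, and Esyt1 made up 69.5% to 82.2% of that of Esyt1 and Esyt2. Pitpna held 43.7% to 59.7% of the summed RPKM of the 4 transfer proteins. The length behind the RPKM of Vapa was 1757 bases in the files, while the GENCODE transcript of the same RefSeq entry is 3369 bases long. With that length the median of Vapa would be 32.9 RPKM, Vapa would exceed Pitpnm1 in 1 of 7 libraries in place of 7, and its share among the VAP anchors would be 64.1% to 73.6%, so its rank depends on the length used. For the other 5 paired genes the files gave 2742 to 6969 bases and GENCODE 2761 to 7029 bases.

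**Figure D4:**
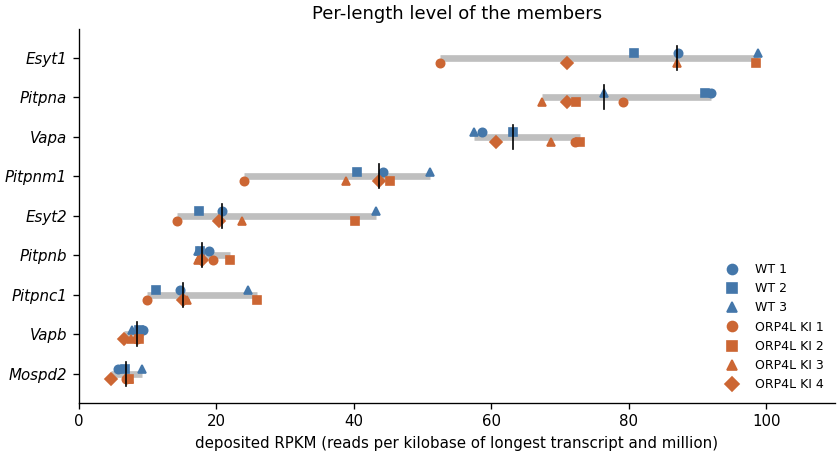
Deposited RPKM of each gene in the 7 libraries, ordered by the median (black tick), with a grey bar from the lowest to the highest library and symbols as for the CPM values (WT blue, ORP4L KI orange). Esyt1, Pitpna and Vapa overlap one another at the top, while Vapb and Mospd2 stay under 10 RPKM.

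The balance within related pairs was examined as a count ratio within each library, which does not depend on library scaling. The ratio of Vapa to Vapb was 1.58, 1.83 and 1.88 in WT replicates 1 to 3 and 2.15, 2.09, 2.28 and 2.30 in ORP4L KI replicates 1 to 4. All 4 ORP4L KI libraries were above all 3 WT libraries, a mean difference of 0.33 on the log2 scale or 1.25-fold (exact permutation test, two-sided p = 0.0286, adjusted p = 0.0571 over 4 ratios). The ratio of each other gene tested to Vapb did not overlap between the groups for 5.68% of genes with the higher values in ORP4L KI and for 6.55% with the lower. Per length, Vapa held 79.1% ± 1.57 (SD, n = 3) of the summed RPKM of the 3 VAP anchors in WT and 82.7% ± 1.06 (SD, n = 4) in ORP4L KI. The share of Vapb was 12.7%, 11.1% and 10.4% in WT and 9.68%, 9.89%, 9.08% and 9.22% in ORP4L KI, without overlap. These shares rest on the same Vapa and Vapb counts as the ratio, so they are not a further test. They also use the length of Vapa in the files. With the GENCODE length, the share of Vapa would be 67.1%, 68.1% and 64.1% in WT and 71.0%, 70.3%, 70.6% and 73.6% in ORP4L KI.

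The ratio of Pitpna to Pitpnb was 6.66, 7.11 and 6.07 in WT and 5.58, 4.54, 5.34 and 5.46 in ORP4L KI. Here the ORP4L KI values all lay under the WT values, with ORP4L KI replicate 2 the lowest. The mean difference was -0.34 on the log2 scale (exact permutation test, two-sided p = 0.0286, adjusted p = 0.0571 over 4 ratios). Among all other genes tested, 15.1% had a ratio to Pitpnb without overlap and lower in ORP4L KI, and 2.68% one that was higher. The raw p of both ratios was the smallest the design allows, and the adjusted p did not pass 0.05. With only 2 of the 4 ratios at that smallest p, their adjusted p could not fall below 0.0571. The ratios were also chosen with earlier results of these data known.

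The ratios of Esyt1 to Esyt2 and of Vapa to Osbp overlapped between the groups. Esyt1 to Esyt2 was 2.78, 3.07 and 1.52 in WT and 2.44, 1.63, 2.43 and 2.31 in ORP4L KI (adjusted p = 0.686 over 4 ratios, exact permutation test). WT replicate 3 and ORP4L KI replicate 2, the libraries with the most Esyt2, had the lowest ratios. Osbp encodes the VAP-A partner OSBP, and the ratio of Vapa to Osbp was 2.26, 2.97 and 1.69 in WT and 3.22, 2.60, 3.23 and 2.85 in ORP4L KI (log2 difference 0.40, adjusted p = 0.19 over 4 ratios, exact permutation test). Osbp itself had 42.2, 37.4 and 54.2 CPM in WT and 47.3, 45.2, 37.5 and 40.7 CPM in ORP4L KI.

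**Figure D5:**
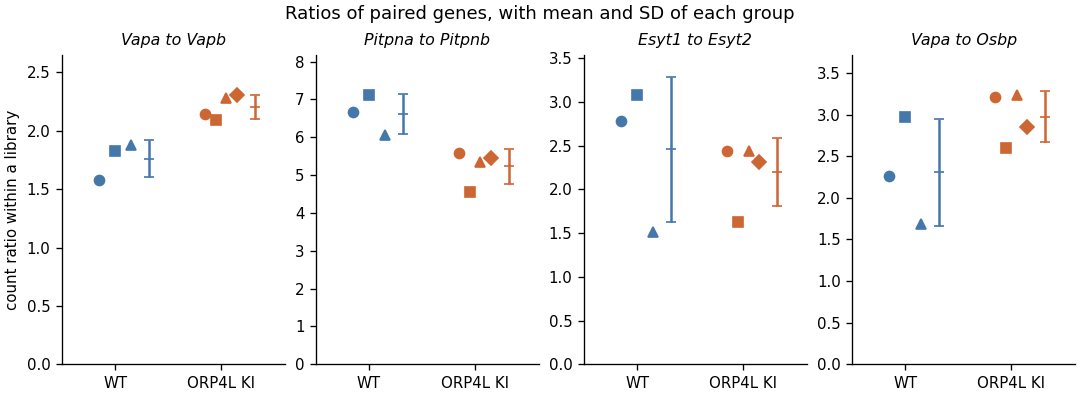
Count ratios of 4 gene pairs within each library, with the WT libraries in blue and the ORP4L KI libraries in orange, a symbol for each replicate number (circle 1, square 2, triangle 3, diamond 4), and the group mean with its SD at the side. The groups are separate for Vapa to Vapb (WT up to 1.88, ORP4L KI from 2.09) and for Pitpna to Pitpnb (WT from 6.07, ORP4L KI up to 5.58), and overlap in the other 2 panels.

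The 9 genes were then set among 60 genes of contact sites and phosphatidylinositol supply, in 8 lists that include the 9. Of these, 56 were tested and 1, Osbp2 itself, had an adjusted p under 0.05 by edgeR. At an unadjusted p under 0.05, 4 of the 56 were higher and 1 lower in ORP4L KI, which is 8.93% of the listed genes against 13.7% of all genes. The groups did not overlap for 6 of the 56, or 10.7%, against 13.8% of all genes, and the median log2 fold change was 0.025, against 0.013 over all genes. None of the 7 genes for phosphatidylinositol resynthesis and PI4P removal had an unadjusted p under 0.05 by edgeR, with log2 fold changes from -0.65 to 0.076. In that list Sacm1l, the endoplasmic reticulum phosphatase that removes the PI4P delivered by OSBP, had a log2 fold change of 0.039.

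Beside Osbp2, 3 of the listed genes had an unadjusted p under 0.05 and groups that did not overlap in TMM-scaled CPM. By plain library totals, and so also in the deposited RPKM, Mospd1 stayed separate while Stim2 and Npc1 overlapped. Mospd1, which encodes a further MSP-domain protein of the endoplasmic reticulum and is X-linked, had 7.52, 7.61 and 7.09 CPM in WT and 27.4, 11.4, 14.6 and 12.8 CPM in ORP4L KI. All ORP4L KI libraries were above WT, with replicate 1, the library richest in granulocyte markers, the highest (log2 fold change 1.16 with a standard error of 0.33 and an adjusted p of 0.147 by edgeR). Without that replicate the log2 fold change of Mospd1 was 0.80. Stim2, a calcium sensor of the endoplasmic reticulum that gates plasma membrane channels at contacts, had a mean of 68.2 ± 8.95 CPM in WT and 93.6 ± 8.90 CPM in ORP4L KI (log2 fold change 0.46, adjusted p = 0.304 by edgeR). Npc1, which exports cholesterol from late endosomes and lysosomes, had 50.3 ± 7.39 CPM in WT and 35.8 ± 6.71 CPM in ORP4L KI (log2 fold change -0.49, adjusted p = 0.322 by edgeR).

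The genes with the CPM pattern nearest to that of Vapa over the 7 libraries, by the root mean square difference of standardised log2 values, were Hspa14, Prok2 and Gnb5, with differences of 0.166, 0.172 and 0.177. Hspa14, a heat-shock protein of the ribosome-associated complex, had 57.5, 60.2 and 54.6 CPM in WT and 74.6, 63.6, 63.2 and 62.5 CPM in ORP4L KI. Like Vapa, it was highest in ORP4L KI replicate 1 and highest among the WT libraries in replicate 2. The likeness is a description of 7 libraries, which share the scaling and the differences in marker shares given above.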

How the data were processed

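T-cell mRNA libraries of 3 WT and 4 ORP4L KI mice were grouped by the sample labels. The methods give peripheral blood or spleen as sources of T-cells without saying which applies to each library. The authors trimmed adapters, dropped reads under 17 nt, mapped the rest to a mouse mRNA reference with FANSe3 (the submitters' processing notes name mm10), merged splice variants, and deposited raw read counts per gene. The authors also deposited RPKM, computed from the longest transcript, which were used for levels between genes and as an alternative, never for the fit. The counts were fitted with edgeR 4.0.16 under R 4.3.3 (filterByExpr with a minimum of 10 counts and 15 in all, TMM, quasi-likelihood test without covariates, Benjamini-Hochberg over 13462 genes). The standard error is the log2 fold change over the square root of F. Ratios used a pseudocount of 0.5 counts. DESeq2 1.42.0 was an alternative. On simulated data for this comparison with 13292 genes tested, the quasi-likelihood test recovered 8 of 97 genes changed by a log2 fold change of 1 and 71 of 98 changed by 2. It made 8 false calls, and its 95% intervals covered 95.3% of unchanged genes. DESeq2 recovered 33 and 85 of the same genes with 33 false calls, and the likelihood ratio test 29 and 86 with 30 false calls. Depth sets the counting error only, and no source says more of the libraries than 1 mouse each. Figures were made with Python 3.11.15 and Matplotlib 3.10.9, and coding sequences were aligned with Biopython 1.88. Coordinates are from RefSeq on GRCm38.p6. The gene members, lists and ratios were chosen with earlier results of these data known. Genes named outside the 9 are Osbp2, Osbp, Xist, Ddx3y, listed genes with an unadjusted p under 0.05 and separate groups, and the 3 profiles nearest to Vapa. Sacm1l and the genes with values in the closing section were chosen after their values were seen. Of the other marker lists set, dendritic cell markers took 0.0537% to 0.0747% of counts in WT and 0.0119% to 0.0262% in ORP4L KI, NK cell markers 0.0382% to 0.053% and 0.00792% to 0.023%, B-cell markers 0.0335% to 0.057% and 0.0199% to 0.0557%, monocyte and macrophage markers 0.0902% to 0.125% and 0.0805% to 0.147%, erythroid markers 1.08% to 1.85% and 0.117% to 0.851%, and dividing cell markers 0.0231% to 0.044% and 0.0543% to 0.108%.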

Additional observations from a re-analysis of the deposited data

Results flagged for a closer look

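The 4 ORP4L KI libraries were searched for a library far from the others in 13 measures, the 9 CPM values and the 4 count ratios, where chance would single out a distant library in about 1 in 20 groups, or 0.65 of 13. For Vapa, ORP4L KI replicate 1 stood apart from the other ORP4L KI libraries in TMM-scaled CPM, at 152.1 against 116.0 to 121.2. It did not by plain library totals or in RPKM, and further scalings were not examined. In the deposited RPKM that library had 72.2, below the 72.9 of ORP4L KI replicate 2, and the other ORP4L KI libraries had 68.7 and 60.7. For the ratio of Esyt1 to Esyt2, ORP4L KI replicate 2 stood apart at 1.63, against 2.31 to 2.44 in the other 3. That library had 204.9 CPM of Esyt2, the highest of the ORP4L KI libraries, and 0.407% of its counts in T-cell markers, the highest of all 7.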

How the results depend on the processing

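All 9 genes stayed above an adjusted p of 0.05 in the 16 alternatives fitted, where the adjusted p ranged from 0.377 to 1.00. Of 144 such results, 126 kept their direction and 18 reversed. Vapa, Pitpna and Pitpnb kept their direction in all 16, from 0.20 to 0.44, from -0.25 to -0.012 and from 0.093 to 0.30. Plain library totals shifted the median over all genes by -0.14 and gave -0.13 for Vapb, -0.13 for Mospd2 and -0.012 for Pitpnc1. Upper-quartile scaling gave -0.045 for Vapb and -0.035 for Mospd2. Leaving out 1 replicate at a time gave -0.092 to 0.082 for Vapb, -0.13 to 0.20 for Mospd2, -0.11 to 0.45 for Pitpnc1, -0.23 to 0.00083 for Pitpnm1, -0.16 to 0.018 for Esyt1 and -0.29 to 0.45 for Esyt2. The cause was not tested.

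The log2 ratio of Vapa to Vapb stayed between 0.25 and 0.38, and that of Pitpna to Pitpnb between -0.40 and -0.27, with single replicates left out, where the smallest p allowed is 0.0667 without a WT library and 0.1 without an ORP4L KI library. That of Esyt1 to Esyt2 ranged from -0.43 to 0.081 around -0.11. The number of the 9 genes with separate groups, 1, was 0 by total counts, and so also by RPKM, which uses nearly the same totals. Both alternatives were chosen after seeing the data. The number was 1 to 2 with single replicates left out, with Pitpnb added without ORP4L KI replicate 3. The transcript length of Vapa and the other scalings of single genes were also chosen after seeing the data.

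The count of genes called over the whole table, 3, was 44 with upper-quartile scaling, 113 by total counts, 176 without a filter, 0 with 10 counts in every library (1549 at an unadjusted p under 0.05), 784 by DESeq2, 706 by the likelihood ratio test, and 0 to 342 with single replicates left out. It was 0 without any 1 of the WT libraries or ORP4L KI replicate 4 (1260 to 1759 at an unadjusted p under 0.05), 1 without ORP4L KI replicate 3 and 342 without ORP4L KI replicate 2. By unadjusted p it was 1845 under 0.05, and 630 under 0.01 with a log2 fold change above 1. On the simulated data DESeq2 and the likelihood ratio test made 33 and 30 false calls, against 8 by the quasi-likelihood test. The count among the 60 listed genes, 1, was 0 with 10 counts in every library, 2 by DESeq2 and by the likelihood ratio test, where Mospd1 was added, 0 to 1 with single replicates left out, and 5 at an unadjusted p under 0.05.

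Replicate numbers 1 to 3 occur in both groups. Libraries with the same number deviated from their group means with correlations of 0.183, -0.608 and 0.0524 across genes, so the numbers were not taken as pairs. With the replicate number as a block and ORP4L KI replicate 4 left out, 48 genes were called, 0 of the 9 among them, Esyt2 was at 0.053, and the log2 ratios were 0.31 for Vapa to Vapb and -0.36 for Pitpna to Pitpnb.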

Other observations

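Calcium entry at contacts between the endoplasmic reticulum and the plasma membrane was the list with the highest median log2 fold change among the 8, at 0.13 over 6 genes. Log2 fold changes in this list ran from -0.33 to 0.46. In TMM-scaled CPM 2 of the 6 genes, Stim1 and Stim2, had separate groups, against 13.8% of all genes tested (6.43% higher in ORP4L KI). The list was singled out after its values were seen, so 2 of so few genes are not a result about it. Plain library totals shifted the median over all genes by -0.14, a shift about as large as this list's median. Stim1, the main calcium sensor of the endoplasmic reticulum, had 65.3, 54.3 and 72.7 CPM in WT and 77.7, 95.7, 76.8 and 87.7 CPM in ORP4L KI. On this TMM scale all ORP4L KI libraries were above WT, as for Stim2. Both genes overlapped by plain library totals and so also in the deposited RPKM. The log2 fold change of Stim1 was 0.40 (adjusted p = 0.394 by edgeR). Pdzd8, a lipid carrier of the endoplasmic reticulum, had a log2 fold change of 0.67 (adjusted p = 0.288 by edgeR), with 38.6, 40.4 and 73.0 CPM in WT and 88.0, 92.2, 69.3 and 74.0 CPM in ORP4L KI, so that ORP4L KI replicate 3 lay inside the WT range.

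Pitpnm3, Esyt3, Osbpl6 and Osbpl10 stayed under the filter on low counts. The counts of Pitpnm3, a relative of Pitpnm1, were 6, 15 and 6 in WT against 2, 1, 3 and 1 in ORP4L KI, and Esyt3 had 3 to 11 counts in the 7 libraries. Among all 36 pairs of the 9 genes, the count ratios of 4 did not overlap between the groups. Besides Vapa to Vapb and Pitpna to Pitpnb these were Vapa to Pitpna and Vapb to Pitpnb, so each of the 4 genes entered 2 of them, and no pair with Mospd2, Pitpnc1, Pitpnm1, Esyt1 or Esyt2 was among them. These pairs share genes and were counted after their values were seen. Over all genes tested, ratios to Vapb did not overlap for 5.68% with higher and 6.55% with lower values in ORP4L KI. For ratios to Pitpnb the shares were 2.68% and 15.1%. The 4 of 36 pairs did not exceed the shares of both directions together for either denominator, so they are not a result about the 9 genes.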
